A study of Cavia porcellus with 35 samples.

Results

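Astrocyte genes were followed in the medial prefrontal cortex (mPFC) of juvenile guinea pigs. They were taken from a list of 39 gene symbols matched by name, ignoring case. Of the 39, 34 were in the table of F1 females, 34 in that of F2 females, 33 in that of F3 females and 32 in that of F1 males, among 11478, 11362, 11651 and 11720 genes. All of these members passed the filter on low counts and were tested. SOX9, ID4, CBS, NTSR2 and DIO2 were not analysed here in any table, TTYH1 was not analysed in F3 females and F1 males, and GJB6 was not analysed in F1 males.

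Astrocytes are glial cells that enclose synapses with fine processes and wrap blood vessels with endfeet. They clear glutamate and potassium released by neurons, convert glutamate to glutamine, store glycogen and move water through the aquaporin AQP4. Neighbouring astrocytes are coupled by gap junctions, and their intermediate filament protein GFAP is the classical marker of astrocytes and of their reaction to injury. Cortical astrocytes that lie in grey matter usually carry little GFAP, whereas those of white matter and of the pial surface carry more.

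The series compared animals descended from guinea pigs given the synthetic glucocorticoid betamethasone (sGC) in late gestation with animals descended from guinea pigs given saline (control), all at postnatal day 40. F1 animals were exposed as fetuses, and F2 and F3 females descended from them through males mated with untreated females. There were 4 control and 4 sGC females in each of F1, F2 and F3, and 5 control and 6 sGC F1 males, with 1 library per animal. No genetic alteration is described in any group. The female offspring studied came from separate litters, and animals were drawn on the availability and quality of their RNA. The count tables summed to 12819964 to 19551079 reads per female and 25697953 to 31763585 per male. Values per animal of single genes are given as CPM, the reads of a gene scaled to a common library size after TMM normalization. Summed levels add CPM scaled to the total reads alone, without TMM normalization. Fold changes, their standard errors (SE) and the FDR come from edgeR's quasi-likelihood test over all genes of a table, with the threshold at an FDR under 0.05. The 4 tables were counted separately, so no level was tested across them.

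The tissue was checked before the comparisons. The sample labels call it prefrontal cortex, while their extraction text names the paraventricular nucleus. The astrocyte markers GFAP and AQP4 were present in every animal, at 45.7 CPM or more for GFAP and 183 CPM or more for AQP4. Of the paraventricular markers, AVP averaged between 0.715 and 1.17 CPM and OXT between 1.29 and 3.63 CPM over the groups. The cortical glutamate transporter gene SLC17A7 averaged 1326 ± 36.1 CPM (SD, n = 4) in F2 female controls and 1472 ± 116 CPM (n = 5) in F1 male controls. In F1 females it averaged 429 ± 378 CPM in controls, with 1752 ± 1230 CPM in sGC animals (n = 4 each).

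The F1 female libraries differed in their regional markers. The summed level of 7 cortex markers was 1318, 449, 252 and 345 CPM in the controls and 1642, 1512, 1143 and 4502 CPM in the sGC animals. Controls 2, 3 and 4 were therefore lower than any sGC animal, and sGC animal 4 stood far above the rest. The summed level of 7 striatum markers, a list written after other values had been seen, was 2708, 611, 950 and 2599 CPM in the controls and 281, 242, 313 and 605 CPM in the sGC animals. Every control lay above every sGC animal, although control 2 and sGC animal 4 were close, so that in F1 females regional composition and treatment cannot be told apart. In F1 males the striatum markers summed to between 115 and 157 CPM in controls and between 134 and 164 CPM in sGC animals. In F2 females they summed to between 155 and 208 CPM in controls and to between 140 and 244 CPM in sGC animals, so the groups overlapped in both tables (1 marker fewer was in the F2 table). The F3 female groups overlapped for the striatum markers (330 to 1015 CPM in controls, with 207 to 455 CPM in sGC animals). They did not overlap for the cortex markers (662 to 1059 and 1170 to 1493 CPM). The part of this difference in the F3 results was not tested.

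**Figure D1:**
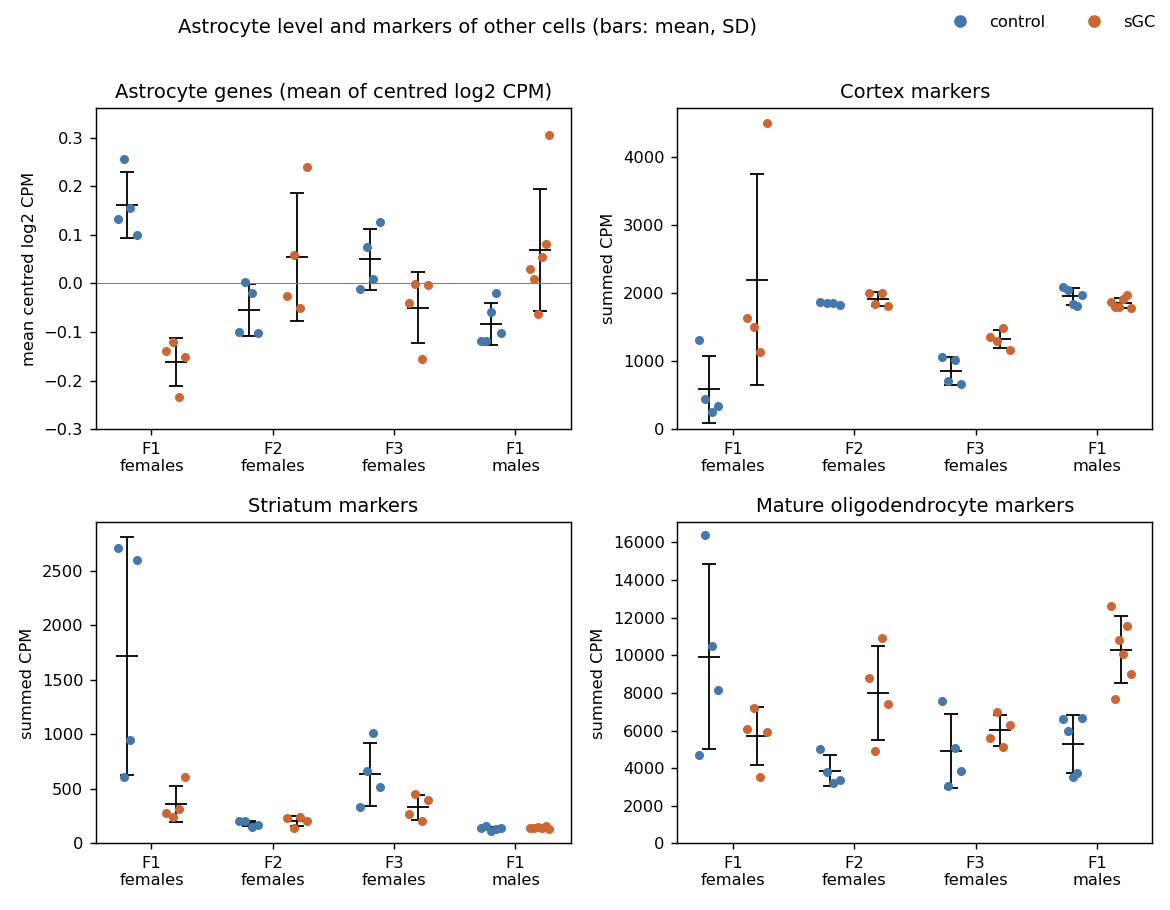
The panels plot, for each animal, the mean over astrocyte genes of log2 CPM centred on each gene's mean over the table, and the summed CPM of cortex, striatum and mature oligodendrocyte markers, for control (blue) and sGC (orange) animals with the mean and SD as bars. F1 female controls lie above F1 female sGC animals for the astrocyte genes and for the striatum markers, and F1 male sGC animals lie above F1 male controls for the oligodendrocyte markers (7660 to 12596 against 3534 to 6643 CPM).

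In F1 females the question was whether direct fetal exposure to sGC changed the level of astrocyte genes in daughters. Expression was lower in sGC animals for 12 of 34 astrocyte genes and higher for 0, while 7.33% of all tested genes were called lower. The 12 genes were MLC1, NDRG2, HEPACAM, ALDH7A1, PLA2G7, GLI3, GJA1, FGFR3, TTYH1, EDNRB, AQP4 and ALDH1L1. The log2 fold change was negative for 29 of the 34, with a median of -0.27 over the astrocyte genes and -0.03 over all genes. For 12 members every sGC animal lay below every control, against 11.2% of all genes. The mean centred level of the 34 genes was between 0.10 and 0.26 in controls and between -0.23 and -0.12 in sGC animals on the log2 scale. The summed level, without TMM scaling, fell from a range of 16902 to 18346 CPM to one of 14556 to 14868 CPM. The TMM factors were 1.01 to 1.04 in controls and 0.970 to 0.973 in sGC animals, so TMM scaling would narrow this gap. In bulk tissue, fewer astrocytes and less RNA per astrocyte cannot be told apart.

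Genes of the astrocyte endfoot and of cell coupling held 5 of the 12. MLC1, a membrane protein of perivascular endfeet that takes part in volume regulation, was at 425, 480, 492 and 541 CPM in the controls and at 281, 312, 262 and 315 CPM in the sGC animals. The groups were clearly apart, with a log2 fold change of -0.73 (SE 0.09, FDR = 0.0039). HEPACAM, the adhesion molecule that holds MLC1 at cell junctions, was at 124, 154, 130 and 118 CPM in the controls and at 95.6, 98.9, 84.4 and 96.3 CPM in the sGC animals. Its log2 fold change was -0.49 (SE 0.09, FDR = 0.012). All sGC values lay below all control values here too.

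AQP4, the water channel of the endfoot, was at 530, 888, 610 and 595 CPM in F1 female controls and at 344, 448, 183 and 412 CPM in sGC animals. It fell by 0.92 on the log2 scale (SE 0.27, FDR = 0.0468), close to the threshold. The control at 888 CPM was also the control with the highest summed oligodendrocyte markers, 16391 CPM, and the sGC animal at 183 CPM was the one with the lowest, 3553 CPM. GJA1, the main astrocyte connexin, fell by 0.53 (FDR = 0.020), and TTYH1, a chloride channel-like protein, fell by 0.34 (FDR = 0.031). Members of the same group that did not pass were SLC4A4, the sodium bicarbonate cotransporter, at -0.31 (FDR = 0.098), the sodium pump subunit ATP1B2 at -0.24 (FDR = 0.11), the connexin GJB6 at -0.18 (FDR = 0.23) and the claudin CLDN10 at 0.04 (FDR = 0.91).

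GFAP did not pass the test in F1 females, although it had the largest fold change of the list. It was at 331, 606, 328 and 379 CPM in the controls and at 177, 270, 45.7 and 264 CPM in the sGC animals. Every sGC animal lay below every control, but sGC animal 3 was far lower than the other three, and the log2 fold change of -1.12 had an SE of 0.47 (FDR = 0.13). The intermediate filament gene VIM was at -0.25 (SE 0.38, FDR = 0.68).

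Other genes of astrocyte identity and of amino acid handling that fell were NDRG2, ALDH7A1 and ALDH1L1. NDRG2, a cytoplasmic protein much used as an astrocyte marker, was at 707, 819, 794 and 743 CPM in the controls and at 534, 584, 553 and 524 CPM in the sGC animals (log2 fold change -0.48, SE 0.06, FDR = 0.0042). ALDH7A1, an aldehyde dehydrogenase of lysine breakdown, was at 140, 146, 127 and 130 CPM and at 95.1, 97.5, 93.5 and 116 CPM (log2 fold change -0.43, SE 0.08, FDR = 0.012). The groups did not overlap for either gene. ALDH1L1, the folate enzyme used as a pan-astrocyte marker, changed by -0.26 on the log2 scale (FDR = 0.048), close to the threshold. It passed in 0 of the 8 fits with 1 animal left out (FDR 0.056 to 0.108). The glutamate transporters SLC1A2 and SLC1A3 were at 0.11 (FDR = 0.30) and -0.09 (FDR = 0.50), and glutamine synthetase, GLUL, at -0.10 (FDR = 0.34). The mitochondrial glutamate carrier SLC25A18 was at -0.65 with an unadjusted p = 0.018 and an FDR of 0.079.

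A secreted enzyme, receptors and a transcription factor completed the list. PLA2G7, a secreted phospholipase that inactivates platelet-activating factor, was at 10.4, 10.8, 9.29 and 8.81 CPM in the controls and at 6.12, 7.10, 5.40 and 6.65 CPM in the sGC animals (log2 fold change -0.64, SE 0.12, FDR = 0.013), with no overlap. GLI3, a transcription factor of hedgehog signalling, fell by 0.73 (FDR = 0.015) and FGFR3, a fibroblast growth factor receptor, by 0.30 (FDR = 0.026). EDNRB, the endothelin B receptor, fell by 0.99 (SE 0.28, FDR = 0.042), but control 1, at 38.5 CPM, lay among the sGC animals, which were at 42.2, 45.4, 27.6 and 30.5 CPM, while the other controls were at 97.9, 85.1 and 69.3 CPM. The 22 members that did not pass ranged from -1.12 to 0.11 on the log2 scale, and 7 of them had an unadjusted p under 0.05. With those that passed, 19 of 34 members were under 0.05, beside 34.2% of all genes.

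The count of 12 depended on the animals included. It was 6 without control 3, sGC animal 1 or sGC animal 4, and 7 without control 2 or 4, while 6 genes (MLC1, NDRG2, HEPACAM, ALDH7A1, PLA2G7 and GLI3) passed whichever animal was left out. Controls 2, 3 and 4 were also left out together, chosen after their cortex markers had been seen to sum to under 500 CPM. The log2 fold change was then negative for 27 of 34 astrocyte genes. Its median was -0.27, against 0.00 over all genes. That fit rests on 1 control, which is assumed to vary like the sGC animals, so it cannot show which genes differ. The control left, control 1, lay above every sGC animal for 21 of 34 members, against 28.3% of all genes. It also had the highest summed striatum markers of the F1 females, 2708 CPM, so the regional difference stayed in this fit. In that fit 4 of 34 members changed sign, none of which passed in either: AGT (-0.07 to 0.96), ETNPPL (-0.32 to 0.41), HES5 (0.06 to -0.25) and MT3 (-0.03 to 0.12).

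In F1 males the same exposure was compared in sons, and the direction was the opposite. Expression was higher in sGC animals for 5 of 32 astrocyte genes and lower for 0, while 5.74% of all tested genes were called higher. The 5 genes were HEPACAM, ALDH7A1, EDNRB, CLDN10 and S100B. The log2 fold change was positive for 26 of 32, with a median of 0.18 over the astrocyte genes and 0.00 over all genes. At an unadjusted p under 0.05 there were 12 of 32, all of them higher, beside 25.2% of all genes in either direction. For 3 members, HEPACAM, ALDH7A1 and NDRG2, every sGC animal lay above every control, against 4.22% of all genes. The count of 5 became 3 without control 1 or without control 3, and 11 with the likelihood ratio test or DESeq2. HEPACAM, ALDH7A1 and EDNRB passed whichever animal was left out.

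HEPACAM was at 86.6, 75.7, 78.2, 77.2 and 87.5 CPM in F1 male controls. The 6 sGC males had a lowest value of 99.4, a median of 112 and a highest value of 117 CPM, above all controls. The log2 fold change was 0.44 (SE 0.05, FDR = 0.0029). ALDH7A1 was at 121, 124, 128, 128 and 126 CPM in controls and at 130 (lowest), 144 (median) and 155 CPM (highest) in sGC animals, which is 0.20 on the log2 scale (SE 0.04, FDR = 0.013). The groups were apart, although by little at the lowest sGC animal.

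EDNRB was at 35.95, 29.7, 28.1, 41.5 and 35.8 CPM in F1 male controls and at 40.4 (lowest), 47.7 (median) and 52.1 CPM (highest) in sGC animals, up by 0.45 on the log2 scale (SE 0.10, FDR = 0.013). Only control 4 reached the range of the sGC animals. CLDN10, a claudin of astrocyte membranes, was at 5.58, 6.89, 6.64, 5.74 and 8.48 CPM and at 7.76, 9.38 and 10.8 CPM by the same order (log2 fold change 0.47, SE 0.12, FDR = 0.028). S100B, a calcium-binding protein of astrocytes that is also made by oligodendrocytes, was at 992, 992, 927, 1041 and 1103 CPM and at 1089, 1216 and 1476 CPM (log2 fold change 0.29, SE 0.08, FDR = 0.037). For CLDN10 and S100B the groups overlapped at 1 control.

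GFAP in F1 males was at 303, 256, 243, 128 and 288 CPM in controls and at 222 (lowest), 442 (median) and 559 CPM (highest) in sGC animals. Its log2 fold change of 0.73 (SE 0.26, FDR = 0.10) was the largest of the list but did not pass. AQP4 was at 503, 453, 458, 427 and 434 CPM and at 390, 513 and 713 CPM (log2 fold change 0.26, SE 0.13, FDR = 0.24). Both groups overlapped for both genes. Just above the threshold were SLC4A4 (0.24, FDR = 0.051), GJA1 (0.18, FDR = 0.053), GLUL (0.23, FDR = 0.054) and ATP1B2 (0.21, FDR = 0.054). SLC1A2 was at 0.01 (FDR = 0.97) and SLC1A3 at -0.05 (FDR = 0.81).

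The F1 male libraries also differed in oligodendrocyte markers. All 8 mature oligodendrocyte markers tested were higher in sGC males, with a median log2 fold change of 0.95, and 5 of 8 markers of oligodendrocyte precursors were higher. Their part in the astrocyte result was not tested. Male sGC animal 6 stood apart with a summed astrocyte level of 18229 CPM, where the other sGC males were between 14005 and 14861 CPM and the controls between 13237 and 14745 CPM.

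**Figure D2:**
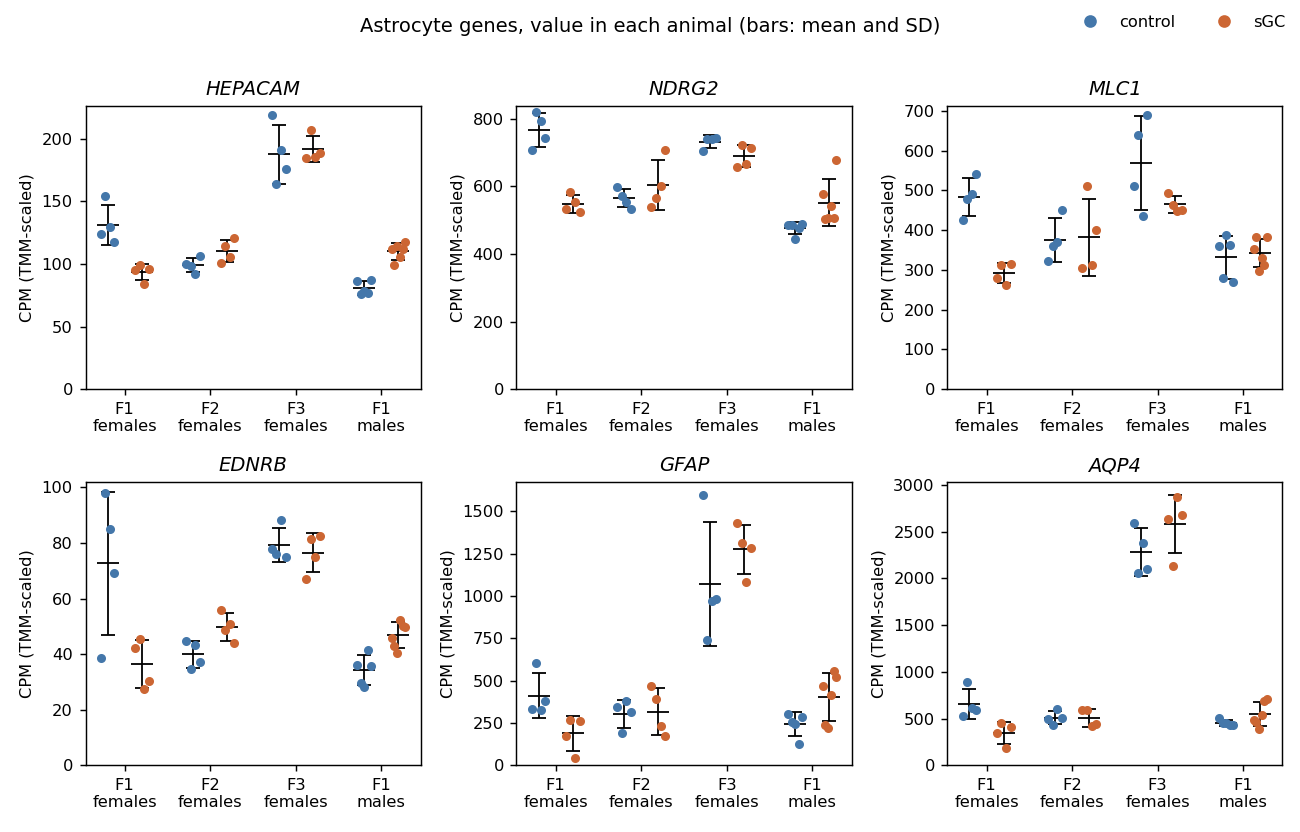
Each panel plots CPM per animal of 1 astrocyte gene in the 4 tables, control in blue and sGC in orange, with the mean and SD as bars and the axis starting at 0. In F1 females the sGC animals lie below the controls for HEPACAM, NDRG2, MLC1, GFAP and AQP4, and in F1 males they lie above for HEPACAM and NDRG2. F3 females stand higher for GFAP and AQP4 in both groups.

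The difference between daughters and sons was tested directly. The response to sGC differed for 16 of 32 astrocyte genes, and each of the 16 differences was positive, meaning a higher response in males. Over all genes, 16% were called in this direction. For 15 of the 16 the fold changes had opposite signs in the 2 sexes, the exception being PLA2G7, which was negative in both and near 0 in males. HEPACAM had the smallest FDR (difference in log2 fold change 0.92, SE 0.10, FDR = 1.03e-05), followed by ALDH7A1 (0.63, SE 0.09, FDR = 6.76e-05) and NDRG2 (0.69, SE 0.10, FDR = 0.00015). GFAP differed by 1.84 (SE 0.54, FDR = 0.015) and AQP4 by 1.17 (SE 0.29, FDR = 0.0058). By the quasi-likelihood test neither passed in males alone, and GFAP passed in neither sex alone. The authors' likelihood ratio test had called GFAP, HEPACAM, EDNRB and ALDH7A1 lower in sGC F1 females and higher in sGC F1 males. NDRG2 in males was at 487, 486, 444, 477 and 488 CPM in controls and at 503 (lowest), 524 (median) and 679 CPM (highest) in sGC animals.

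Of the 32 genes in both tables, 22 were negative in females and positive in males, or 68.8%, against 34.8% of all shared genes. Without F1 female controls 2, 3 and 4, the median difference was 0.46 over the astrocyte genes and 0.01 over all genes. That fit has 1 F1 female control and cannot show which genes differ. The regional difference among F1 females given above enters this comparison in full, and its part was not tested. Males and females were also counted in separate tables, with more reads per male. Sex cannot be told apart from these differences.

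**Figure D3:**
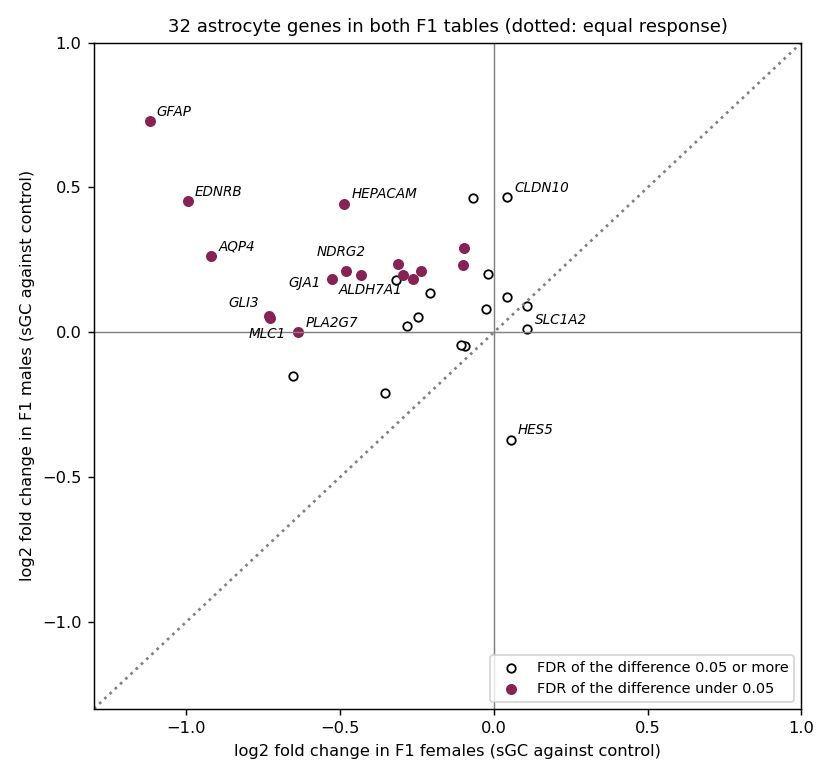
The plot sets the log2 fold change (sGC against control) in F1 females on the horizontal axis against that in F1 males on the vertical axis for 32 astrocyte genes, with filled points where the difference passed an FDR of 0.05. The 16 filled points lie above the dotted line of equal response, 15 of them with a negative value in females and a positive one in males, and SLC1A2 lies near the origin.

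In F2 females, granddaughters of the treated animals, 0 of 34 astrocyte genes passed the quasi-likelihood test, beside 0.278% of all genes. At an unadjusted p under 0.05 there were 7, all higher in sGC animals, where the share of all genes was 16.1%, and edgeR's likelihood ratio test and DESeq2 each called 2, FGFR3 and GLUL. Without sGC animal 2 the quasi-likelihood test called 1. The fold change was positive for 29 of 34 genes, with a median of 0.10 against 0.01 over all genes. For 2 members, FGFR3 and S100B, all sGC animals lay above all controls, an arrangement found for 4.08% of all genes.

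FGFR3 was at 85.7, 76.4, 74.6 and 72.3 CPM in F2 controls and at 96.7, 87.5, 89.9 and 122 CPM in sGC animals (log2 fold change 0.36, SE 0.10, FDR = 0.13). The sGC animal at 122 CPM was animal 4, which also had the highest mean centred astrocyte level, 0.24. GLUL, which makes glutamine from glutamate, was at 1566, 1666, 1665 and 1525 CPM and at 1663, 1939, 2046 and 2068 CPM (log2 fold change 0.26, SE 0.08, FDR = 0.13), with sGC animal 1 within the control range. GFAP was at 342, 189, 379 and 316 CPM in controls and at 471, 394, 232 and 175 CPM in sGC animals (log2 fold change 0.05, SE 0.29). AQP4 was at 500, 437, 599 and 503 CPM and at 589, 597, 417 and 438 CPM (0.00, SE 0.13). Neither marker separated the groups, and the spread within each group was wider than the difference.

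Compared with F1 females, the response in F2 females was higher for 10 of 34 astrocyte genes and lower for 0, and 6.75% of all genes were called higher. HEPACAM (difference 0.64, SE 0.12, FDR = 0.0047), NDRG2 (0.57, SE 0.11, FDR = 0.0059) and FGFR3 (0.65, SE 0.14, FDR = 0.0092) had the smallest FDR. HEPACAM was at 99.97, 98.1, 92.3 and 106 CPM in F2 controls and at 101, 114, 106 and 121 CPM in sGC animals, with overlap. NDRG2 was at 599, 573, 555 and 534 CPM and at 540, 565, 601 and 708 CPM, also with overlap. All 10 genes had opposite signs in the 2 generations. The count was 6 without F1 control 3 or F2 control 1, and 5 without F2 sGC animal 4. Without F1 female controls 2, 3 and 4, the median difference was 0.39 over the astrocyte genes and 0.00 over all genes. With 1 F1 control left, that fit cannot show which genes differ, and the regional difference stayed in it.

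In F3 females, great-granddaughters, 0 of 33 astrocyte genes passed the quasi-likelihood test, 1.34% of all genes did, and the likelihood ratio test and DESeq2 also called 0. At an unadjusted p under 0.05 there were 3, GLI3, ALDH1L1 and MLC1, all lower in sGC animals, beside 17.3% of all genes. Without control 1 the quasi-likelihood test called 1, GFAP, which was higher in sGC animals (log2 fold change 0.51, FDR = 0.044). The fold change was negative for 25 of 33, with a median of -0.07 against -0.01 over all genes. GLI3 was at 17.8, 21.0, 19.0 and 19.8 CPM in controls and at 19.5, 15.9, 15.9 and 14.1 CPM in sGC animals (log2 fold change -0.24, SE 0.10, FDR = 0.27). ALDH1L1 was at 49.4, 51.9, 46.2 and 53.8 CPM and at 46.3, 47.0, 45.1 and 45.4 CPM (-0.13, SE 0.06, FDR = 0.28). For both genes the groups overlapped at 1 control or 1 sGC animal.

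GFAP was at 1595, 743, 968 and 980 CPM in F3 controls and at 1430, 1313, 1083 and 1283 CPM in sGC animals (log2 fold change 0.25, SE 0.20, FDR = 0.57). AQP4 was at 2594, 2055, 2374 and 2096 CPM and at 2638, 2135, 2869 and 2673 CPM (0.18, SE 0.10, FDR = 0.43). Both markers were thus on the positive side in a list that was mostly negative, and neither passed with all animals included. The response of 0 of 33 astrocyte genes differed between F3 and F1 females by the quasi-likelihood interaction test (0.0981% of all genes did). At an unadjusted p under 0.05 there were 10 (15.8% of all genes), the likelihood ratio test called 3 and DESeq2 called 4, and the quasi-likelihood count was 2 without F1 control 1 and 1 without F1 sGC animal 4. The 10 included AQP4, with a difference of 1.08 (SE 0.30, FDR = 0.15), and GFAP, with 1.35 (SE 0.55, FDR = 0.25). The 3 comparisons with F1 females share those 8 animals.

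**Figure D4:**
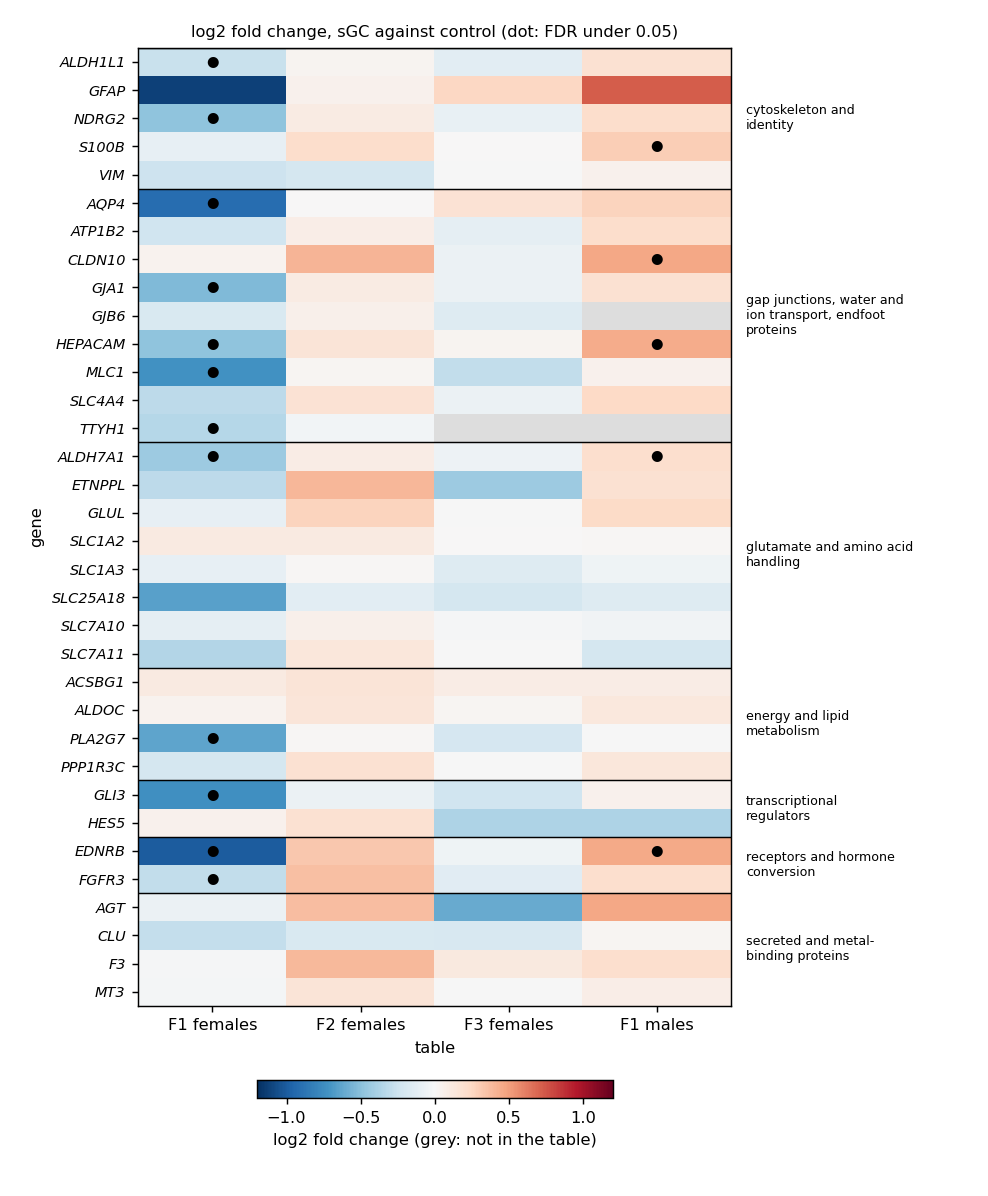
The colours give the log2 fold change of sGC against control animals for each astrocyte gene (rows, grouped by role) in each table (columns), blue for lower and red for higher in sGC animals, with a dot for an FDR under 0.05. F1 females hold 12 dots, all on blue cells, and F1 males hold 5, all on red cells, while the columns of F2 and F3 females hold none.

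Of the 32 genes tested in all tables, 14 had a negative fold change in F1 and F3 females and a positive one in F2 females and F1 males, whether or not they passed, against 12.6% of all 10725 genes tested in every table. A negative fold change in F1 females alone was found for 5, against 10.6% of all genes. The median log2 fold change of the striatum markers had the same signs as the 14 genes. It was -2.30 in F1 females, 0.23 in F2 females, -0.74 in F3 females and 0.10 in F1 males. The part of regional composition in this pattern was not tested. The range over the tables was smallest for 3 genes of uptake and metabolism. The glutamate transporter gene SLC1A2 lay between 0.01 and 0.11 on the log2 scale in the 4 tables, the glycolytic aldolase ALDOC between 0.02 and 0.14 and the acyl-CoA synthetase ACSBG1 between 0.09 and 0.16, and these 3 genes were positive in every table. EDNRB lay between -0.99 and 0.45, HEPACAM between -0.49 and 0.44, AQP4 between -0.92 and 0.26 and MLC1 between -0.73 and 0.05.

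Among secreted proteins, 0 of 4 passed in any table by the quasi-likelihood test, and at an unadjusted p under 0.05 there was CLU in F1 females and AGT and tissue factor (gene symbol F3) in F2 females. AGT, the angiotensin precursor, was at 0.47 (SE 0.23) in F1 males, 0.37 (SE 0.17) in F2 females, -0.07 (SE 0.33) in F1 females and -0.60 (SE 0.50) in F3 females. CLU, clusterin, was at -0.28 in F1 females (FDR = 0.088), tissue factor at 0.39 in F2 females (FDR = 0.22), and the metallothionein MT3 ranged from -0.03 to 0.15. HES5, a target of Notch, was at -0.37 in both F1 males (FDR = 0.32) and F3 females (FDR = 0.34).

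Control levels, set side by side with no test because the tables were counted separately, differed most between F3 and F1 females for 3 members. GFAP averaged 411, 307, 1072 and 244 CPM in the controls of F1, F2 and F3 females and F1 males, AQP4 656, 510, 2279 and 455 CPM, and S100B 618, 543, 1598 and 1011 CPM. The ratio of F3 to F1 female controls was 2.61 for GFAP, 3.48 for AQP4 and 2.59 for S100B, while 7.41% of the 11022 genes in both tables had a ratio of 2 or more. For the other members it lay between 0.728 (SLC25A18) and 1.54 (ETNPPL). Against F2 female controls the ratio was 4.47 for AQP4, 3.50 for GFAP, 3.25 for ETNPPL, 2.94 for S100B, 1.99 for EDNRB and 1.89 for HEPACAM, while 10.8% of shared genes had a ratio of 2 or more.

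Genes outside the list that work with these members were counted in the same fits, and their counts stand beside the shares of all genes called, which were 7.33% lower and 9.21% higher in F1 females, and 5.74% higher and 3.48% lower in F1 males. Of 9 genes that anchor AQP4 or buffer potassium, 3 were lower in sGC F1 females and 3 higher in sGC F1 males. The potassium channel KCNJ10 changed by -0.46 (FDR = 0.039) in F1 females and 0.36 (FDR = 0.0066) in F1 males, and LAMA2, a laminin chain of the vascular basement membrane, by -1.17 (FDR = 0.048) and 0.50 (FDR = 0.0059). The cotransporter SLC12A2 rose by 0.63 in F1 males (FDR = 0.0045). Of 11 synapse-modifying secreted or engulfment genes, 5 were lower in F1 females, among them CHRDL1 (-0.64, FDR = 0.0089) and BCAN (-0.63, FDR = 0.0088), and 3 were higher in F1 males, among them MEGF10 (0.27, FDR = 0.013) and SPARCL1 (0.21, FDR = 0.041).

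Of 16 genes of gliogenic transcription and Notch signalling, 3 were lower (7.33% of all genes) and 2 higher (9.21%) in F1 females, with SOX2 at -0.59 (FDR = 0.010) and NOTCH1 at -0.53 (FDR = 0.013), and ID2 at 0.60 (FDR = 0.043) and NFIX at 0.33 (FDR = 0.030). In F1 males 2 were higher, NOTCH1 at 0.32 (FDR = 0.019) and NFIA at 0.27 (FDR = 0.027). Reactive astrocyte genes held 2 of 10 lower in F1 females, EMP1 (-1.21, FDR = 0.029) and S1PR3 (-0.55, FDR = 0.0059), and 1 of 10 higher in F1 males, TIMP1 (0.45, FDR = 0.021). Of the partners of the glutamate-glutamine cycle, 3 of 8 were higher in F1 females, among them the glutamine transporter SLC38A2 at 0.35 (FDR = 0.033). In F1 males SLC38A3 was higher (0.36, FDR = 0.0073) and SLC38A1 lower (-0.18, FDR = 0.035) among 8.

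Of 9 genes of glycogen use and the lactate shuttle, F1 females had LDHA higher (0.52, FDR = 0.015) and the lactate transporter SLC16A1 lower (-0.57, FDR = 0.014), F3 females had LDHA higher (0.53, FDR = 0.049), and F1 males had 0 calls. Glucocorticoid-inducible genes gave 0 of 12 calls in F1 females and 2 of 12 in F1 males, both higher, PDK4 (0.82, FDR = 0.0029) and CDKN1A (0.49, FDR = 0.012). In F2 females 0 genes of these 7 lists passed, and in F3 females LDHA was the only one.

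Markers of other cells moved with the astrocyte genes in F1 females. Beside 7.33% of all genes called lower and 9.21% called higher, 4 of 6 microglia markers were lower (summed level 247 to 305 CPM in controls, with 175 to 198 CPM in sGC animals), as were 2 of 10 endothelial and mural markers (689 to 770 and 532 to 697 CPM). Of 8 mature oligodendrocyte markers 0 passed and all were negative (median -0.72), with 4701 to 16391 CPM in controls, with 3553 to 7196 CPM in sGC animals, and the 8 precursor markers were likewise negative without a call. Neuronal markers went the other way, with 4 higher and 1 lower of 9 (7149 to 8572 and 9646 to 13575 CPM), and 1 of 4 ependymal markers was lower (21.4 to 45.2 and 15.9 to 29.6 CPM). In F2 females the 8 mature oligodendrocyte markers were positive with a median of 1.06 and 0 calls, and their summed level was 3231 to 5033 CPM in controls, with 4896 to 10896 CPM in sGC animals. In F3 females 3 of 9 neuronal markers were higher (6495 to 8470 and 9667 to 10362 CPM), and the ependymal markers summed to 158 CPM or more in every animal. Markers of microglia and of endothelial and mural cells gave 0 calls in F2 females, F3 females and F1 males. The cortex and paraventricular markers gave 0 calls in every table by the quasi-likelihood test, although the cortex median was 1.91 in F1 females. The striatum markers, listed after other values had been seen, are given without a test. Their median log2 fold change was -2.30 in F1 females, 0.23 in F2 females, -0.74 in F3 females and 0.10 in F1 males. Of 9 neuronal markers in F1 males, 1 was lower, GAD1, the GABA-synthesizing enzyme (-0.22, FDR = 0.029), and in F2 females 0 passed. The part of these other cells in the astrocyte results was not tested.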

How the data were processed

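RNA had been sequenced by the authors from mPFC punches of 35 guinea pigs (TruSeq V2 mRNA libraries, 1 per animal). The authors deposited 1 table for each of F1, F2 and F3 females and F1 males that gives raw read counts (whole numbers) under each gene symbol. The submitters' processing notes name TopHat2 and edgeR, and the read counter, genome build, annotation and filter are not given in the sources used here. The tables also hold the authors' fold changes, mean levels, likelihood ratio statistics, p-values and FDR, which were not used.

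The analysis ran under R 4.3.3 (packages edgeR 4.0.16, DESeq2 1.42.0 and limma 3.58.1). A gene entered a fit if it passed filterByExpr at a minimum count of 10 and a minimum total count of 15. Libraries were TMM-scaled, and sGC was compared with control within each table by the quasi-likelihood test, with Benjamini-Hochberg adjustment over all genes tested. Differences of response were tested as interactions in 3 joint fits. The scripts were tested on simulated data.

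The members and lists were chosen with earlier results of these data known. Besides the 39 members there were 7 pathway lists and markers of 9 other cell types or regions (the striatum list was added last). Values per animal are given for GFAP, AQP4, the 5 members with the smallest FDR in a table (or the 2 with the smallest p where none passed) and the 3 with the smallest FDR in an interaction (and for EDNRB in F1 females, added after its values were seen). Other members that passed are named with their fold change, members that did not pass were chosen after their values were seen, and in each pathway list at most the 2 highest and 2 lowest that passed. Each result was recomputed with DESeq2, with edgeR's likelihood ratio test, with upper-quartile or RLE scaling, and unfiltered or keeping genes over 1 CPM. It was also recomputed with the replicate number as a block and without each animal in turn. The tables were fitted together only to recompute the counts of members called within each table. No 2 libraries of a group agreed within sampling noise (smallest chi-square per degree of freedom 2.80). Member genes had 8 or more reads in every animal in which they were tested, and intervals for counting error were not computed. Whether reads are shared between overlapping genes or paralogs cannot be read from the tables. Some genes of the pathway lists are counted but not reported here by name.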

Additional observations from a re-analysis of the deposited data

Results flagged for a closer look

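The response to sGC differed between F1 females and F1 males by the interaction test of edgeR for 16 astrocyte genes, each higher in males. On the log2 scale the differences were 1.84 for GFAP, 1.44 for EDNRB, 1.17 for AQP4, 0.92 for HEPACAM, 0.78 for GLI3, 0.77 for MLC1, 0.70 for GJA1, 0.69 for NDRG2, 0.63 for PLA2G7, 0.63 for ALDH7A1, 0.54 for SLC4A4, 0.49 for FGFR3, 0.44 for ATP1B2, 0.44 for ALDH1L1, 0.38 for S100B and 0.33 for GLUL. Between F1 and F2 females it differed for 10, each higher in F2 females. These differences were 1.31 for EDNRB, 0.75 for MLC1, 0.65 for FGFR3, 0.64 for HEPACAM, 0.64 for PLA2G7, 0.61 for GJA1, 0.57 for NDRG2, 0.52 for ALDH7A1, 0.39 for PPP1R3C and 0.36 for GLUL. Both comparisons use the same F1 females, whose controls carried more striatum marker RNA than the sGC animals.

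By Dixon's ratio of the gap to the whole range, single animals stood apart from their group in 5 of the 112 groups of 4 to 6 animals examined (14 genes), where this criterion marks about 1 group in 20 by chance. ALDH1L1 was at 33.5 CPM in F1 female sGC animal 1, with the others between 37.9 and 38.7 CPM, and at 49.4 CPM in F1 male sGC animal 6, with the others between 35.9 and 39.4 CPM. GLI3 was at 16.7 CPM in the same male, with the others between 10.3 and 11.9 CPM. NDRG2 was at 705 CPM in F3 control 1 (others 740 to 744 CPM) and at 444 CPM in F1 male control 3 (others 477 to 488 CPM).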

How the results depend on the processing

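No named astrocyte gene that passed changed direction under another setting or with 1 animal left out. The likelihood ratio test and DESeq2 each called 2 astrocyte genes in F2 females and 11 in F1 males, against 0 and 5 by the quasi-likelihood test, and 3 and 4 for the difference between F1 and F3 females, against 0. The cause was not tested. Leaving out the 3 F1 female controls with low cortex markers, chosen after seeing the data, left 1 control and cannot show which genes differ. The median log2 value was then -0.27 in F1 females, 0.46 for the difference from F1 males and 0.39 for that from F2 females. The control left had the highest summed striatum markers of the F1 females, so the regional difference stayed in these fits. Leaving out each animal in turn gave 6 to 11 called genes in F1 females, 0 to 1 in F2 females, 0 to 1 in F3 females and 3 to 7 in F1 males. For the differences from F1 females it gave 14 to 17 in F1 males, 5 to 13 in F2 females and 0 to 2 in F3 females. Of 1309 single-gene results with 1 animal left out, 1156 kept direction and side of the threshold, 96 no longer passed, 12 newly passed and 45 that did not pass changed sign. Of 735 under the other settings these were 686, 13, 23 and 13. Those that changed sign had a log2 value of at most 0.14 in size in the main fit. With 1 animal left out, CLDN10 in F1 females ranged from -0.10 to 0.21. In F2 females GFAP ranged from -0.20 to 0.25 and AQP4 from -0.09 to 0.09.

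Deviations from the group means correlated at -0.33 to 0.36 between same-numbered animals, which cannot show whether the numbers pair them. The main fits treated the animals as unpaired. With the replicate block the counts were 9 in F1 females, 0 in F2 females, 0 in F3 females and 2 in F1 males (HEPACAM and EDNRB), and 12, 8 and 0 for the differences of F1 males, F2 females and F3 females from F1 females. The lowest count of a tested member in any animal was 8 reads, which limits the precision of the lowest genes, such as ETNPPL.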
